A study of Arabidopsis thaliana with 8 samples.

Results

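The ZAT and AZF genes of Arabidopsis thaliana are stress-responsive C2H2 zinc finger genes, and 9 of them were followed here by gene identifier: ZAT5 (AT2G28200), ZAT6 (AT5G04340), ZAT10 (AT1G27730, also STZ), ZAT11 (AT2G37430), ZAT12 (AT5G59820, also RHL41), ZAT18 (AT3G53600), AZF1 (AT5G67450), AZF2 (AT3G19580) and AZF3 (AT5G43170). The choice is a list of identifiers with no threshold on a measured value, drawn up with earlier results of these data known. All 9 were listed in all 8 libraries, among 20690 genes listed in at least 1 library, and all 9 passed the filter on low values that left 18328 genes for testing. Poly(A) RNA from rosette leaves 5 to 9 of 4-week-old Col-0 plants was sequenced, with 4 libraries of wild type (WT) and 4 libraries of ABI3:MTA (mta). Plants of both genotypes grew in soil at 22 °C with 16 h of light and 8 h of dark, and leaves were taken 4 h after lights came on. No stress treatment is named for either genotype. MTA is the catalytic methyltransferase that places N6-methyladenosine (m6A) on mRNA, and its loss is lethal to the embryo. In ABI3:MTA plants a copy of MTA is driven by the promoter of ABI3, a gene active in seeds, so the plants pass through embryogenesis and are low in MTA afterwards. The line is a knockdown after germination rather than a null, and the labels do not say whether each library came from separate plants, so the p-values below measure only the spread between libraries.

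ZAT and AZF proteins carry paired C2H2 fingers, each with the plant-specific sequence QALGGH that contacts DNA, and an EAR motif that recruits corepressors of the TOPLESS family. Most act as transcriptional repressors. Their mRNAs are known for rising within minutes of wounding, cold, salt, high light or reactive oxygen and for decaying quickly. In the TAIR10.1 annotation all 9 genes had a single exon, as did 20.4% of 27444 protein-coding genes. Their transcripts were 702 to 1431 bases long and encoded 162 to 286 residues. Each of the 9 proteins held 2 copies of QALGGH. The EAR letters DLN were present in 8 of the 9 proteins and absent from ZAT12. ZAT12 had the LxLxL form of the motif, whose last copy lay at residue 153 of 162. The letters LxLxL were also present in ZAT5, ZAT11 and ZAT18, where the last copy lay after both copies of QALGGH. In ZAT6, AZF1 and AZF2 the only copy, at residues 54, 64 and 71, lay before both copies of QALGGH and far from DLN. ZAT10 and AZF3 had no LxLxL. ZAT6 and ZAT10 were the closest pair at 68.4% identical residues, followed by ZAT11 and ZAT18 at 62.8% and ZAT10 and AZF3 at 59.6%. The most distant pair was ZAT12 and AZF2 at 19.6%.

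The 250 bases before the annotated start are shown for the genes whose values carry the results, ZAT6, ZAT10, ZAT12 and AZF2, to show which motifs each of them holds. The sequences come from TAIR10.1 (RefSeq), whose chromosomes were not checked letter by letter against the TAIR10 build named for the reads, and are written 5′ to 3′ on the strand of the gene. Capitals mark every match, on either strand, to the W box TTGAC (bound by WRKY factors), the G-box core ACGTG, the DRE core CCGAC (bound by CBF and DREB factors), the GCC box GCCGCC (bound by ERF factors), the rapid stress response element CGCGTT (bound by CAMTA factors) and the heat shock element GAANNTTC. ZAT6 lies on the minus strand and its window is chr5:1217363-1217612. ZAT10 lies on the minus strand and its window is chr1:9649324-9649573. ZAT12 lies on the plus strand and its window is chr5:24102564-24102813. AZF2 lies on the minus strand and its window is chr3:6804297-6804546.
ZAT6: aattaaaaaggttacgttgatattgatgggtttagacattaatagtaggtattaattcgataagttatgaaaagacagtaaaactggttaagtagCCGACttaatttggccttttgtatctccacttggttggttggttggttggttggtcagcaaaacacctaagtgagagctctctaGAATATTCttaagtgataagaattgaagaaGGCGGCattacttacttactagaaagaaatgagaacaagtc
ZAT10: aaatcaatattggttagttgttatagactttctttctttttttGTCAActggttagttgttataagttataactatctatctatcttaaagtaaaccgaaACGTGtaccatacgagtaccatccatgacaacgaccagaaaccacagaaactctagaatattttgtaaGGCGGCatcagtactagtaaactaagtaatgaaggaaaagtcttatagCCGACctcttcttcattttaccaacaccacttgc
ZAT12: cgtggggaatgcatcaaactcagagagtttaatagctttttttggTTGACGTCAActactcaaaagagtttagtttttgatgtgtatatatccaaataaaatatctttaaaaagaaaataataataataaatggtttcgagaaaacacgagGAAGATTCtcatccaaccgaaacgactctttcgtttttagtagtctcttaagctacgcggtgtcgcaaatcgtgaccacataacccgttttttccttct
AZF2: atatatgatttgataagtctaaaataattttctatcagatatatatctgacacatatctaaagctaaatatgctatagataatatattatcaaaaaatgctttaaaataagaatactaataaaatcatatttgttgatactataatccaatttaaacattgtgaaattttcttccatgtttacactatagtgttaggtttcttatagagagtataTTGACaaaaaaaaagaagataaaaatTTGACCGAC

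In these windows ZAT6 had a DRE core 155 bases, a heat shock element 71 bases and a GCC box 41 bases before the start. ZAT10 had a W box at 207, a G-box core at 150, a GCC box at 82 and a DRE core at 34 bases. ZAT12 had W boxes at 205 and 200 bases, which adjoin on opposite strands, and a heat shock element at 99. AZF2 had W boxes at 35 and 9 bases and a DRE core at 5 that shares a base with the nearer W box. Across the 9 genes the W box was found in 7, against 44.9% of 27443 promoters of the same length. The GCC box was found in 2, ZAT6 and ZAT10, against 1.87% of promoters. The DRE core was found in 4 against 12%, the heat shock element in 3 against 9.55%, and the G-box core in 2 against 22.9%. CGCGTT was in none of the 9 windows and in 2.59% of all promoters, and AZF3 held none of the 6 motifs. Only these 6 strings of letters were searched for in the windows, so other forms of each site were not scored.

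**Figure D1:**
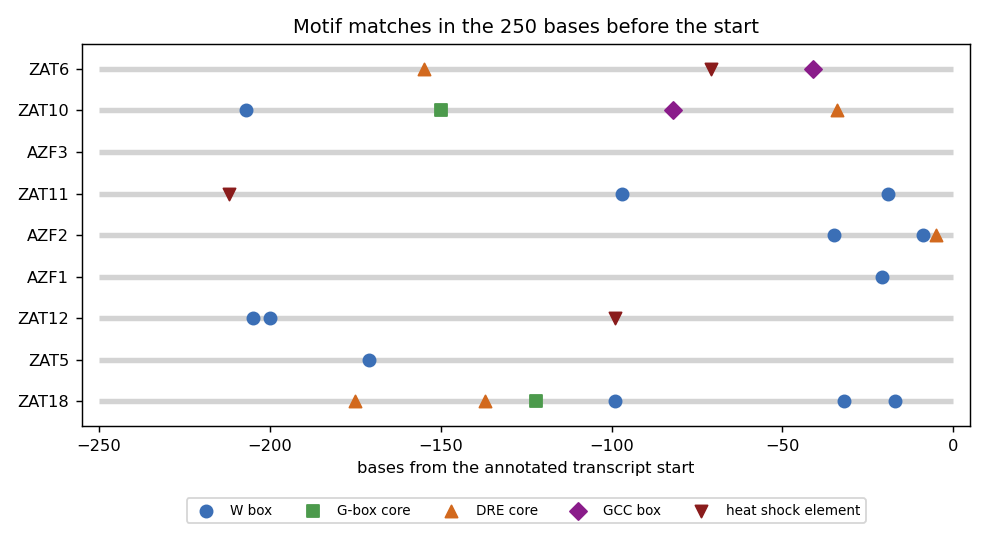
Positions of motif matches in the 250 bases before the annotated start of each of the 9 genes, in bases before the start, with 1 symbol per motif. ZAT6 and ZAT10 hold a GCC box, AZF3 holds no match, and ZAT18 holds 6 matches.

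The level of MTA itself was read first as a check of the labels. Its normalised read count (the deposited value scaled by a composition factor per library) was 66.0, 84.7, 70.5 and 68.8 in WT 1 to 4 and 41.0, 61.3, 59.2 and 42.7 in mta 1 to 4. All mta libraries were below all WT libraries, a log2 fold change of −0.52 ± 0.15 (SE; limma adjusted p = 0.0312). Leaving out WT 2 raised the adjusted p to 0.0944. It was 0.0653 with WT 3 left out, 0.0629 with WT 4 left out and 0.0724 with mta 1 left out, and it ran from 0.0508 to 0.0737 in 3 further alternatives. Reads of the transgene and of the native gene cannot be told apart in these values.

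Among the 9 zinc finger genes, 7 fell in mta (limma, adjusted p under 0.05 over all 18328 tested genes), none rose, and 2, ZAT5 and ZAT18, did not pass the test. Over all tested genes 26.4% were called in either direction and 13.1% were called lower. The split over all tested genes, 2436 higher and 2406 lower, moved to 1671 and 4249 with the deposited scaling alone and to 2888 and 1806 with upper-quartile factors, and the 7 calls held in both. The median log2 fold change of the 9 genes was −0.64, beside −0.02 for all tested genes. In the same 7 genes every mta library was below every WT library, which held for 14.6% of tested genes. The fold was largest for ZAT6 and ZAT10, and 2 of the 9 genes were lower by 1 log2 unit or more. These are bulk leaf libraries, so fewer cells of a type and less RNA per cell cannot be told apart.

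ZAT6, described in the acclimation to cold, salt, cadmium and phosphate shortage, had the largest change of the 9. Its normalised read counts were 495, 355, 361 and 410.2 in WT 1 to 4 and 178, 130.4, 154 and 95.3 in mta 1 to 4. The lowest WT library was well above the highest mta library, and mta 4 was the lowest of all. The mean went from 405 ± 64.8 (SD, n = 4) to 139 ± 35.1 (n = 4), a log2 fold change of −1.56 ± 0.18 (SE; limma adjusted p = 0.000158), which is 2.94-fold lower. The 95% interval of the log2 fold change ran from −1.95 to −1.16.

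ZAT10, the salt tolerance zinc finger and a repressor also tied to photo-oxidative stress and jasmonate signalling, was the most abundant member. Its normalised read counts were 1450, 1211, 1271 and 1442 in WT 1 to 4 and 749, 691, 651 and 497 in mta 1 to 4. A wide gap parted the genotypes, and mta 4 was again the lowest. The mean went from 1344 ± 121 (SD, n = 4) to 647 ± 108 (n = 4), and the log2 fold change was −1.06 ± 0.13 (SE; limma adjusted p = 0.000220), or 2.09-fold lower. Its 95% interval was −1.35 to −0.78.

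ZAT12, known as a marker of reactive oxygen and high light and as part of the cold response, had normalised read counts of 400.0, 274, 287 and 304 in WT 1 to 4. In mta 1 to 4 the values were 219, 199.5, 229 and 202. WT 1 stood above the other WT libraries, while the mta libraries lay close together, and the coefficient of variation was 18.1% in WT and 6.64% in mta. The mean of 316 ± 57.2 (SD, n = 4) in WT became 212 ± 14.1 (n = 4) in mta, a log2 fold change of −0.56 ± 0.12 (SE; limma adjusted p = 0.00722). Of the 7 genes that fell, ZAT12 had the smallest fold, 1.47-fold lower.

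ZAT11, described in nickel tolerance and in cell death driven by reactive oxygen, was read at 24.8, 35.9, 32.4 and 34.7 in WT 1 to 4 and at 22.2, 21.2, 17.8 and 15.3 in mta 1 to 4. The groups came nearest at WT 1 and mta 1. The mean went from 31.9 ± 5.00 (SD, n = 4) to 19.1 ± 3.19 (n = 4), a log2 fold change of −0.71 ± 0.17 (SE; limma adjusted p = 0.00969), or 1.64-fold lower.

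**Figure D2:**
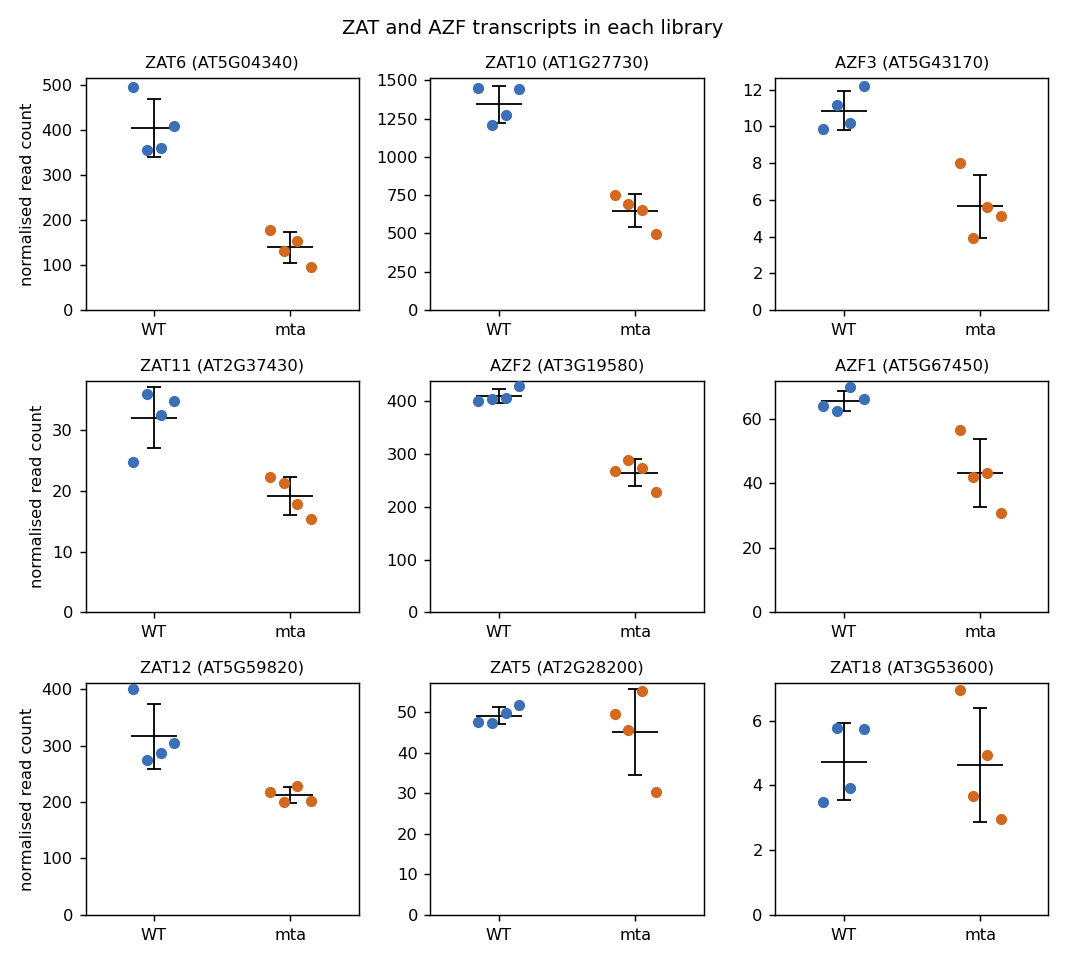
Normalised read count of each of the 9 genes in each library, on an axis from 0 for each gene, with 1 point per library and the group mean with its SD in black. The groups are apart for 7 genes and overlap for ZAT5 and ZAT18, and ZAT6 spans 355 to 495 in WT and 95.3 to 178 in mta.

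The 3 AZF genes all fell. AZF2, a repressor of abscisic acid-repressed and auxin-induced genes under salt and drought, was the least variable member in WT. Its normalised read counts were 401, 404, 406 and 428 in WT 1 to 4 and 268, 289, 273 and 228 in mta 1 to 4. The coefficient of variation was 3.05% in WT and 9.83% in mta, and the gap between the groups was wide against both. The mean went from 409.7 ± 12.5 (SD, n = 4) to 264 ± 26.0 (n = 4), a log2 fold change of −0.64 ± 0.09 (SE; limma adjusted p = 0.000745), or 1.55-fold lower.

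AZF1, which acts with AZF2 in the same responses, was read at 63.8, 62.3, 69.8 and 66.0 in WT 1 to 4 and at 56.6, 41.9, 43.1 and 30.9 in mta 1 to 4. The WT libraries agreed closely, with a coefficient of variation of 4.92%, and the mta libraries spread widely, at 24.5%. The mean went from 65.5 ± 3.22 (SD, n = 4) to 43.1 ± 10.6 (n = 4), a log2 fold change of −0.62 ± 0.16 (SE; limma adjusted p = 0.0164), or 1.54-fold lower. AZF3 was close to the filter. Its values were 9.84, 11.2, 10.2 and 12.2 in WT 1 to 4 and 7.99, 3.93, 5.59 and 5.10 in mta 1 to 4. If 1 step of the deposited values is 1 read, AZF3 rested on 31 to 51 reads per WT library and 15 to 23 per mta library. Its log2 fold change was −0.86 ± 0.21 (SE; limma adjusted p = 0.0117), or 1.82-fold lower, with a 95% interval of −1.32 to −0.40.

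ZAT5 and ZAT18 did not pass the test. ZAT5 was read at 47.6, 47.4, 49.9 and 51.9 in WT 1 to 4 and at 49.7, 45.6, 55.2 and 30.3 in mta 1 to 4. Libraries mta 1 to 3 lay around the WT values and mta 4 well below them, so the groups overlapped. The log2 fold change was −0.15 ± 0.17 (SE; limma adjusted p = 0.543) with a 95% interval of −0.52 to 0.22, and it was 0.024 without mta 4. ZAT18, described in drought tolerance, was the least abundant member, at 3.49, 5.76, 3.92 and 5.74 in WT 1 to 4 and 6.95, 3.67, 4.93 and 2.95 in mta 1 to 4. These values rest on 11 to 24 steps per library. Its log2 fold change was −0.05 ± 0.27 (SE; limma adjusted p = 0.909) with a 95% interval of −0.64 to 0.54, so a change of the size seen for AZF1 was not excluded for ZAT18.

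**Figure D3:**
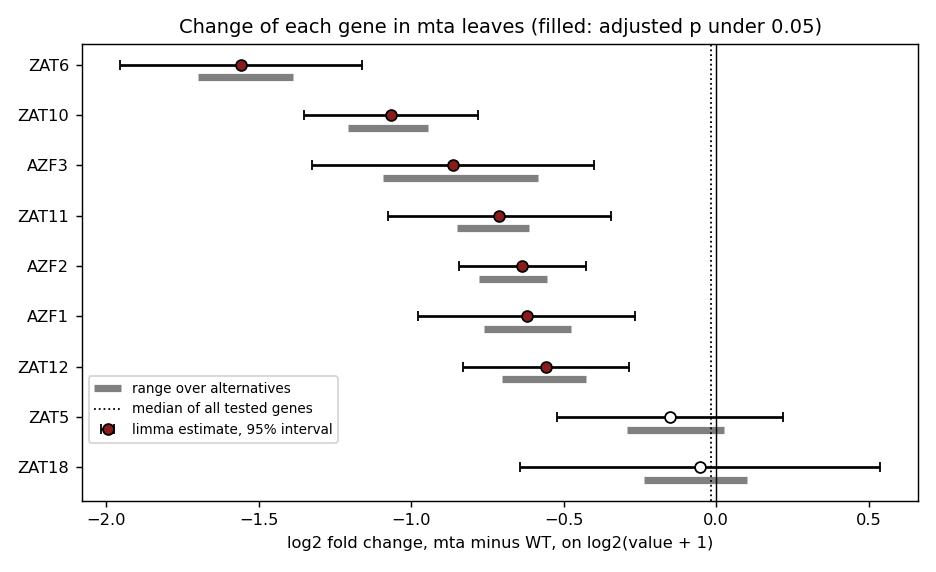
Log2 fold change (mta minus WT) of the 9 genes with 95% intervals from limma, and in grey the range of the estimate over the alternatives. The dotted line marks the median of all tested genes, −0.02. The intervals of ZAT6 (−1.95 to −1.16) and ZAT10 (−1.35 to −0.78) lie farthest below 0, and those of ZAT5 and ZAT18 include 0.

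Whether the fall differed in size between members was tested for all 36 pairs within the same libraries, with an exact two-sided permutation test over 70 assignments. The smallest p this design allows is 0.0286. It was reached by 20 of the 36 pairs, whose p adjusted over the 36 pairs was 0.0514 each, so no pair passed 0.05. With this smallest p a pair could pass only if more than 20 of the 36 reached it. The outcome therefore does not show that the members changed alike. The fold changes of ZAT6 and AZF2 differed by −0.92 on the log2 scale. The log2 ratio of ZAT6 to AZF2 ran from −0.18 to 0.30 in WT and from −1.25 to −0.59 in mta, without overlap. The difference was −0.998 between ZAT6 and ZAT12 and −0.49 between ZAT6 and ZAT10. ZAT12 and AZF2 differed by 0.08 (exact permutation p = 0.629) and AZF1 and AZF2 by 0.01 (exact permutation p = 0.943).

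Per kb of transcript, which allows levels to be set between genes, ZAT10 led in both genotypes with 1031 ± 92.7 (SD, n = 4) normalised reads per kb in WT and 497 ± 82.7 in mta. In WT the next genes were ZAT12 at 322 ± 58.3, ZAT6 at 311 ± 49.6 and AZF2 at 294 ± 8.95, and their ranges over the 4 libraries overlapped. In mta ZAT12 stood at 216 ± 14.4, AZF2 at 189.6 ± 18.6 and ZAT6 at 107 ± 26.9, and every ZAT6 value was below every AZF2 value. The lower ranks held AZF1 at 46.3 ± 2.28 in WT and 30.5 ± 7.46 in mta, ZAT5 at 34.4 ± 1.47 and 31.6 ± 7.46, and ZAT11 at 34.0 ± 5.32 and 20.3 ± 3.40. The WT ranges of ZAT5 and ZAT11 overlapped, and AZF1 lay above both. AZF3 at 15.5 ± 1.51 in WT and 8.05 ± 2.43 in mta, and ZAT18 at 5.89 ± 1.48 and 5.76 ± 2.18, came last. In mta the ranges overlapped between ZAT12 and AZF2, among AZF1, ZAT5 and ZAT11, and between AZF3 and ZAT18.

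Summed over the 9 genes, the level per kb was 1909 to 2310 in WT and 894 to 1245 in mta. ZAT10 made up 49.2% ± 1.11 (SD, n = 4) of the WT sum and 44.8% ± 1.99 of the mta sum. The share of ZAT6 was 14.8% ± 1.11 in WT and 9.55% ± 1.28 in mta. ZAT12 and AZF2 took larger shares in mta, 19.8% ± 2.43 against 15.3% ± 1.57 and 17.3% ± 1.32 against 14.1% ± 1.20. ZAT5 went from 1.65% ± 0.147 to 2.83% ± 0.406 of a smaller sum. Shares of 1 sum move against each other and carry no test.

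**Figure D4:**
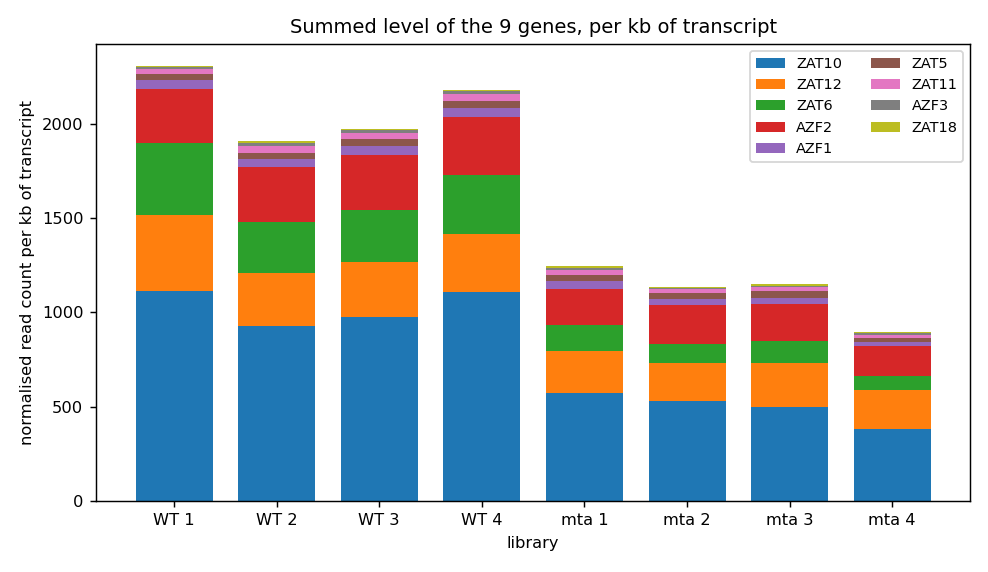
Normalised read count per kb of transcript of the 9 genes, stacked in 1 bar for each of the 8 libraries. The bars reach 1909 to 2310 in WT and 894 to 1245 in mta, and ZAT10 is the largest piece of each.

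Within mta the libraries were not alike for these genes. Library mta 4 held the lowest mta value for 7 of the 9 genes and mta 2 for the other 2, ZAT12 and AZF3. Library mta 1 held the highest mta value for 6. In WT the lowest value was in WT 2 for 5 genes and in WT 1 for 4. Over all genes the first principal component held 51.7% of the variance and parted the genotypes, while the second held 26.2% and ran from WT 1 and mta 1 to mta 4. Without WT 1, mta 1 and mta 4 together, the same 7 genes were called lower and none higher.

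**Figure D5:**
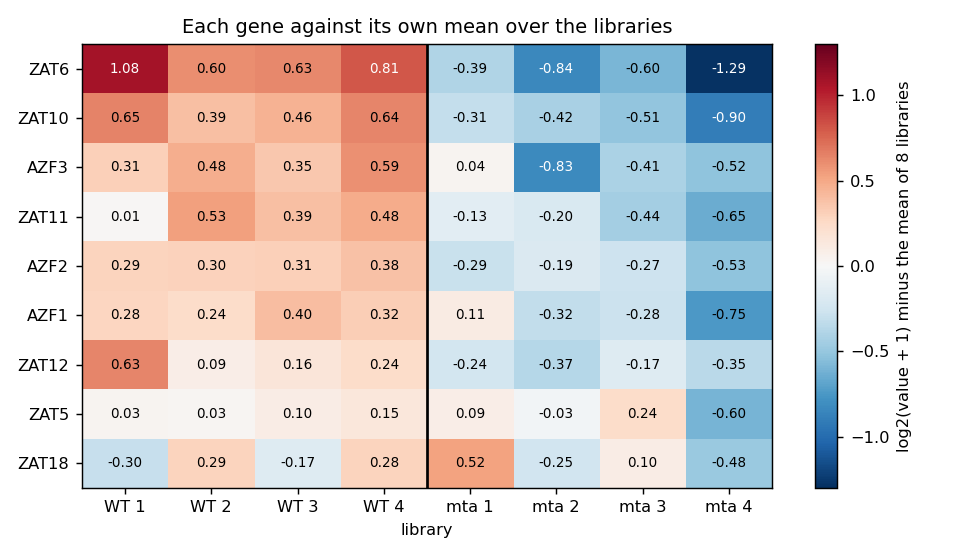
Log2 level of each of the 9 genes in each library, centred on the gene's mean over the 8 libraries. The values run from 1.08 (ZAT6 in WT 1) to −1.29 (ZAT6 in mta 4), and mta 4 holds the lowest mta value for 7 of the 9 genes.

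Other genes of the same response were counted from lists of genes chosen by reported role. To set beside each list, 13.1% of all 18328 tested genes were called lower, and 2436 genes were called higher. Of 22 companions that respond within minutes to the same stimuli, 16 fell, none rose and 6 did not pass, with a median log2 fold change of −0.81 beside −0.02 for all tested genes. FBS1, an F-box protein gene induced by stress, went from 264 ± 13.0 (SD, n = 4) to 71.8 ± 7.73 normalised read counts (log2 fold change −1.87; limma adjusted p = 1.30e-06). ERF6, an ethylene response factor and substrate of MPK3 and MPK6, went from 903 ± 132 to 245 ± 33.6 (−1.88; limma adjusted p = 5.42e-06). ERF105 (AT5G51190) went from 531 ± 34.0 to 154 ± 27.5 (−1.80; limma adjusted p = 8.25e-06), and the calcium sensor CML38 from 574 ± 34.8 to 279 ± 21.4 (−1.04; limma adjusted p = 2.46e-05). The calls of these 4 genes held under all alternatives run.

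Of 13 kinases and factors described upstream of ZAT genes, 7 fell, 1 rose and 5 did not pass, with a median of −0.44. WRKY40, also among the companions, went from 597 ± 22.5 to 300.1 ± 50.1 (−1.005; limma adjusted p = 0.000145) and WRKY33, in both lists too, from 3006 ± 490 to 1698 ± 198 (−0.82; limma adjusted p = 0.00161). RBOHD, the NADPH oxidase that makes the apoplastic oxidative burst, went from 1272 ± 127 to 745 ± 76.9 (−0.77; limma adjusted p = 0.000561). HSFA4A, a heat shock factor placed upstream of ZAT12, went from 338 ± 24.3 to 215 ± 23.4 (−0.66; limma adjusted p = 0.00113). CAMTA3 and HSFA1B were also called lower, but their groups overlapped. CAMTA3 had the largest fall of the list (−1.10, limma adjusted p = 0.00915), with 259 in WT 1 and 295 in mta 4. HSFA1B read 137 in WT 1 and 150 in mta 4. RBOHF, named after its value was seen as the gene that rose, went from 89.9 ± 19.2 to 200.2 ± 55.5 (1.13; limma adjusted p = 0.00227).

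Of 17 genes reported downstream of ZAT and AZF proteins, 15 were tested. Of these 7 fell, 2 rose and 6 did not pass, and the median was −0.15. The lipoxygenase genes of jasmonate synthesis LOX4 and LOX3 had log2 fold changes of −1.26 (limma adjusted p = 1.13e-05) and −0.66 (limma adjusted p = 0.00200). LOX4 went from 1735 ± 145 to 722 ± 58.0 and LOX3 from 1684 ± 204 to 1066 ± 105. PCS1, the phytochelatin synthase placed under ZAT6 in the cadmium response, went from 637 ± 55.6 to 401 ± 13.0 (−0.66; limma adjusted p = 0.000452). COR47, a dehydrin gene, went from 7879 ± 1418 to 5281 ± 364 (−0.56; limma adjusted p = 0.00863). Another 2 genes rose and are named for that reason. These were APX1, the cytosolic ascorbate peroxidase, from 1189 ± 221 to 1729 ± 188 (0.55; limma adjusted p = 0.0115), and COR15A, a cold-regulated gene, from 2168 ± 547 to 3361 ± 391 (0.66; limma adjusted p = 0.0114). The groups of COR15A overlapped, with 2983 in WT 1 and 2848 in mta 4.

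None of 8 genes of EAR corepressors and their deacetylases passed the test in limma, and 0 had an unadjusted p under 0.05, with a median of −0.0046, and 1 or 2 were called lower in 3 of the 17 alternatives. The smallest adjusted p was that of TPR4, a TOPLESS-related corepressor, which read 301 ± 55.5 in WT and 244 ± 30.7 in mta (−0.29; limma adjusted p = 0.166). With WT 1 left out its adjusted p was 0.0255.

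Beyond the 9, another 18 genes of the annotation encode proteins with at least 2 copies of QALGGH. Of these 8 were tested and 5 were listed in no library. Among the 8, 2 fell, 1 rose and 5 did not pass, with a median of 0.13. Over all 18328 tested genes 13.1% were called lower, and 2436 genes were called higher. AT3G49930 fell from 17.3 ± 2.09 to 7.30 ± 1.85 (−1.16; limma adjusted p = 0.00167). ZAT7 (AT3G46090) fell from 592 ± 113 to 398 ± 69.2 (−0.57; limma adjusted p = 0.0176), with an adjusted p of 0.0541 without mta 3. AT5G03510 rose from 8.01 ± 1.76 to 12.1 ± 0.931 (0.56; limma adjusted p = 0.0408), and this call was lost in 9 of 17 alternatives, with adjusted p of 0.0641 to 0.117. The call was lost when any 1 library other than WT 1 or mta 4 was left out. AT3G60580, AT2G45120 and AT1G49900 had log2 fold changes of 0.39, 0.46 and 0.37 and did not pass. AT3G46080 and AT2G28710, at −0.26 and −0.11, did not pass either.

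Some markers of cell types moved with genotype and are given beside these counts. Of all 18328 tested genes, 2436 were called higher and 2406 lower. Of 10 epidermis and guard cell markers 4 rose and none fell (median 0.32), and their summed normalised read count was 17769 to 20415 in WT and 26568 to 32919 in mta. TGG1, a myrosinase gene, made up most of that sum, with 14759 to 17399 in WT and 23972 to 29858 in mta, and the other 9 markers together overlapped between the genotypes, at 2918 to 3016 and 2597 to 3061. Of 9 vascular markers 5 rose and none fell (median 0.33), with sums of 4643 to 4997 in WT and 6182 to 6740 in mta. Of 5 mesophyll markers 3 rose and none fell (median 0.60), with sums of 193500 to 225713 and 253782 to 445511. The sums without the most abundant marker, PP2-A1 and RBCS1A, were 3236 to 3390 in WT and 3974 to 4315 in mta for vasculature and 68009 to 86151 and 86335 to 128096 for mesophyll. The root markers CASP1, CASP2 and EXPA7 and the seed markers CRU1, CRU3 and OLEO1 were listed in no library, and COBL9 was listed in 1. SCR, the other gene of the root list, was listed in all 8 libraries, with overlapping groups. It read 142.9 to 210.0 in WT and 181.2 to 235.4 in mta, unlike the rest of that list, and was not taken as a sign of root. The part of cell makeup in the result was not tested.

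For each of the 7 genes that fell, the genes whose centred log2 values over the 8 libraries were nearest (root mean square difference, among genes with a mean of at least 50) were named. ZAT6 was nearest to LTP4, a lipid transfer protein gene, at 0.154, and AT3G55840 at 0.158, where the median over 11463 such genes was 0.823. The nearest of so many genes lies far below the median by selection. These distances include the genotype difference, so genes of a like log2 fold change come near (LTP4 −1.48 beside ZAT6 −1.56). Shared regulation was not tested. ZAT10 was nearest to VSP2, a vegetative storage protein gene induced by jasmonate, at 0.0736, and AT1G07135 at 0.0764. ZAT12 was nearest to AT1G23220 at 0.0523 and AT2G44530 at 0.0567, and ZAT11 to AT4G34150 at 0.0843 and ATR2 at 0.106. AZF2 was nearest to PnsB5 at 0.0239 and AT1G51090 at 0.0432, AZF1 to AT2G41040 at 0.0614 and ADSS at 0.0827, and AZF3 to HPR3 at 0.139 and STP14 at 0.143. Among the 9 genes themselves, a far smaller set to choose from, ZAT6 was nearest to ZAT10 at 0.281, and ZAT11 and AZF2 were nearest to each other among these at 0.165.

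At the other end of the transcript, the pentamer ATTTA, known from unstable mRNAs, was in the last 200 bases of 6 of the 6 members whose annotated 3′ end allowed the window, against 44.3% of 15792 genes. The letters TGTAA were in 3 of the 6, against 46.6%. ZAT5, ZAT18 and AZF3, with annotated 3′ untranslated regions of 189, 118 and 105 bases, were not scored. All 6 scored genes fell in mta, so the letters could not be compared with those of ZAT5 and ZAT18, which did not pass. These letters were searched for after the values were seen, and m6A itself was not measured in these libraries.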

How the data were processed

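Poly(A) RNA of 4 WT and 4 mta leaf libraries was made into strand-specific TruSeq libraries, per the labels' protocols. STAR 2.4.0, HTSeq, DESeq2 and the TAIR10 build are named, with no order or settings, per the submitters' processing notes. The deposited values are a signal per gene with no value under 1; 100% of them were whole multiples of 1 step per library within a tolerance of 0.02, the form that reads divided by 1 factor per library would take. If 1 step is 1 read, libraries held 17132896 to 25377346 reads. Rows for reads in no gene (4.92% to 5.97% of the total) and other non-gene rows were left out.

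Values were scaled by trimmed-mean (TMM) factors (0.869 to 1.09) and tested as log2(value + 1) with a mean-variance trend in limma 3.58.1 (R 4.3.3), with Benjamini-Hochberg adjustment at 0.05 over genes of at least 3 in at least 4 libraries. A fold change on this scale understates that of low genes. The planned test across genes was run on simulated data first. Those data had independent genes and no effect shared by the genes of a library, so they do not give the error rate in the libraries used here. Where 1 member's change was set against another's, an exact permutation test was used. Gene models and sequences came from TAIR10.1 in RefSeq, which matched 20582 of 20690 identifiers. The named genes are all 9 members, up to 4 per list by smallest adjusted p, the 2 nearest patterns per called member, and MTA. All 8 tested genes of the other QALGGH genes are named too. Further genes are named for the direction, overlap or level of their values. The members and lists were chosen with earlier results of these data known. The values of WT 2 and WT 3, as steps, were closer to each other than those of other pairs (chi-square per degree of freedom 1.77 against 5.43 to 63.9) and were kept as 2 libraries. Alternatives covered scaling, pseudocount, filter, transcript length, a replicate block, leaving out libraries and averaging WT 2 and WT 3.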

Additional observations from a re-analysis of the deposited data

How the results depend on the processing

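The 7 calls among the 9 genes, and their direction, held in all 17 alternatives run, and none of the 9 was called higher in any. The log2 fold change ranged from −1.70 to −1.39 for ZAT6, −1.21 to −0.94 for ZAT10, −0.85 to −0.61 for ZAT11, −0.70 to −0.43 for ZAT12, −0.76 to −0.48 for AZF1, −0.78 to −0.55 for AZF2 and −1.09 to −0.58 for AZF3; the highest limma adjusted p was 0.0495, for AZF1. With 1 library left out ZAT18 ranged from −0.24 to 0.10 and ZAT5 from −0.26 to 0.024. The sign of ZAT18 turned without WT 2 (0.035), WT 4 (0.034), mta 2 (0.020) or mta 4 (0.10), and that of ZAT5 without mta 4 (0.024) or without WT 1, mta 1 and mta 4 together (0.013). Over all genes, 2436 were called higher and 2406 lower. The deposited scaling alone gave 1671 higher and 4249 lower, with all genes shifted by −0.139 in the median, and upper-quartile factors gave 2888 and 1806. Leaving out 1 library gave 1715 to 3224 higher and 1570 to 3403 lower, and leaving out WT 1, mta 1 and mta 4 gave 3928 and 4619. The median of the 9 genes was −0.78 with the deposited scaling and −0.57 with upper-quartile factors. Of the same-numbered libraries WT 1 and mta 1 deviated together (correlation 0.465) and the others did not (0.0828, −0.204 and −0.345 for numbers 2, 3 and 4), so the numbers were not taken as a pairing; a fit with the replicate number as a block called 2301 genes higher and 2215 lower and the 9 members as before. The 2 planned count models were not run, because the deposited values are normalised and were not established to be whole reads. Depth limits ZAT18 and AZF3 most.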
